A study of Mus musculus with 2 samples.

Results

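Metaphyseal stromal cells of mouse long bone were defined by transcripts of Wif1, Slitrk6, Col25a1 and Kcnk2. A cell entered when it carried at least 1 unique molecular identifier (UMI, 1 captured RNA molecule) of at least 2 of these 4 genes. It also had to have no UMI of Cdh5, Ptprc or Mmp9, which mark endothelial, blood and osteoclast cells, and fewer than 5 UMIs of the cartilage gene Acan. Cells with 2 or more of Aspn, Omd and Pi15, with 3 or more of Adipoq, Lepr, Esm1, Hp, Lpl and Chrdl1, or with a UMI of the osteoblast gene Ifitm5 were left out. In all, 795 of 55783 kept cells met the rule, 462 in Control and 333 in Dach1OE. Because detected transcripts chose the cells, the levels of the 4 rule genes are a description, and so is every comparison of these cells with other stromal cells.

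The 2 libraries, 1 per group, were made from non-haematopoietic cells of femur and tibia of C57BL/6 mice at postnatal day 30 (P30). Mice of both groups received tamoxifen, and male and female mice were used. The Control genotype was Dach1OE +/f, that is, the inducible Dach1 transgene with no Cre named, and the Dach1OE genotype was Apj CreERT2 - Dach1OE +/f. Apj is another name of Aplnr, which drives the Cre in endothelial cells (ECs) per the methods. In the stromal cells described here Aplnr had 17 UMIs in Control and 10 in Dach1OE. According to the methods each library pooled 2 mice, the epiphysis had been removed, and blood cells had been depleted with lineage, CD45 and CD117 beads. With 1 library per group no test was possible and there was no replicate check. All intervals are 95% intervals, cover counting error only, were not adjusted over genes, and so describe these libraries and not the genotype.

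The metaphysis is the zone of trabecular bone below the growth plate, where vessels, cartilage-resorbing cells and osteoblast precursors lie side by side. Stromal cells there express genes of the osteoblast lineage and matricellular proteins such as periostin and tenascin C, whereas the stromal cells of the diaphyseal marrow express adipogenic regulators and factors that maintain blood cells. Wif1 encodes a secreted inhibitor that binds Wnt ligands, Slitrk6 a neuronal transmembrane protein, Col25a1 a transmembrane collagen, Kcnk2 the 2-pore potassium channel TREK-1 and Postn periostin.

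The sequences just before the starts of Wif1 and Slitrk6, which name the cells, and of Postn, the marker that the rule left out, are printed because they differ in the core elements they hold. They come from RefSeq on GRCm38.p6 and end 1 base before the annotated start, and capitals mark an AP-1 site (TGACTCA or, as here, its other strand) or a TATA box (TATAAA). Wif1 lies on the plus strand (chr10:121033904-121034003), Slitrk6 on the minus strand (chr14:110755150-110755249) and Postn on the plus strand (chr3:54361007-54361106, the second of its 2 starts).
Wif1: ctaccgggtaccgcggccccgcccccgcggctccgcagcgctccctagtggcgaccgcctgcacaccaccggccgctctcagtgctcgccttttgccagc
Slitrk6: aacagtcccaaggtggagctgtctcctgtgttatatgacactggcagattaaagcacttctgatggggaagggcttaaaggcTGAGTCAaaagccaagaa
Postn: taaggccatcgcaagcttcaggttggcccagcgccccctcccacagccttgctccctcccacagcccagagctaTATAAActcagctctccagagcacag

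The AP-1 letters began 18 bases before the Slitrk6 start and the TATA box 26 bases before the Postn start. Over the 250 bases before all 32851 starts, on both strands, TGACTCA was present in 4.46% and TATAAA in 12.4%. Among the 5 genes, TGACTCA was found before a start of Slitrk6 and of Kcnk2, and TATAAA before Postn and Wif1. The RUNX core TGTGGT, present at 14.0% of all starts, was found before none of the 5, and the TCF/LEF core CTTTGA, present at 13.8%, only before Kcnk2. These matches describe letters and say nothing of binding.

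The metaphyseal stromal cells held 1700051 UMIs in Control and 1267867 in Dach1OE. Their median depth was 3067.5 and 3067 UMIs per cell, with 1493 and 1500 genes, and 11.7% and 11.2% of the UMIs of the median cell were mitochondrial. Xist was found without Y-linked transcripts in 193 and 109 of the cells, Y-linked transcripts without Xist in 79 and 57, and 190 and 167 could not be assigned. A comparison within either sex sets 1 mouse against 1 mouse if each pool held a female and a male. Among all kept cells 879 cell barcodes were found in both libraries. No barcode belonged to a metaphyseal stromal cell in both, and whether such a cell shared its barcode with any other kept cell was not counted. Scrublet called 2.60% of them doublets in Control and 5.71% in Dach1OE. As a check of the genotype, Dach1 was at 5.35 and 134 CPM (UMIs of a gene per 1000000 UMIs of the summed cells) in cells with a Cdh5 UMI, and 2.04% and 34.6% of these held a Dach1 UMI. In the metaphyseal stromal cells 1 of 462 and 3 of 333 did.

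Wif1 and Kcnk2 carried most of the definition. A Wif1 UMI was found in 95.9% of Control and 91.6% of Dach1OE cells and a Kcnk2 UMI in 76.2% and 77.2%, against 29.4% and 32.4% for Col25a1 and 24.0% and 25.8% for Slitrk6. The pair of Wif1 and Kcnk2 alone accounted for 53.0% and 49.5% of the cells. The summed level of Wif1 was 1849 CPM in the Control and 1703 CPM in the Dach1OE library, that of Kcnk2 457 and 408 CPM, of Col25a1 115 and 121 CPM and of Slitrk6 87.6 and 96.2 CPM. Slitrk6, for which the cells are named, was the least often detected of the 4. After thinning of each cell to 2000 UMIs it was found in 18.5% and 17.2% of the cells, and in 0.145% and 0.126% of cells with Ptprc.

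Most cells sat just inside the threshold. Exactly 2 rule genes were found in 355 and 255 cells, 3 in 96 and 66, and all 4 in 11 and 12. Another 707 and 704 cells met every other condition but held only 1 rule gene. The cells just outside were deeper, with medians of 3896 and 3582 UMIs against 3054 and 2988 just inside, and differed in genes that the rule did not use. Tnc, which encodes tenascin C, was at 4776 CPM just inside and 961 CPM just outside in Control, and at 4402 and 806 CPM in Dach1OE. Limch1, an actomyosin regulator, was at 944 against 145 CPM in Control and at 806 against 111 CPM in Dach1OE. Of the 1204 Control and 824 Dach1OE cells with at least 2 rule genes before the exclusions, 201 and 244 held Ifitm5, 167 and 110 the Aspn, Omd and Pi15 genes, and 424 and 170 the Adipoq and Lepr genes.

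The label was checked against Postn, the marker outside the rule, and against markers of other cells. Postn was at 682 CPM in the Control and 502 CPM in the Dach1OE library and was found in 65.2% and 51.7% of the cells. After the same thinning, which kept 372 and 261 cells, 58.9% of Control and 47.5% of Dach1OE cells held a Postn UMI, against 2.61% and 1.39% of cells with Ptprc, whose median depth was 5048 and 4842 UMIs. The thinned share was 11.4 points lower in Dach1OE (difference -11.4, -19.1 to -3.47). Of the Aspn and Omd cells described below, 45.2% and 31.6% held a Postn UMI after thinning, so Postn was not particular to the metaphyseal stromal cells. Of 8 endothelial markers none was at 0 apart from Cdh5, which the rule excluded, and together they made up 126 and 139.6 CPM. The 7 chondrocyte markers outside the rule, which limited Acan, summed to 1304 and 1753 CPM, most of it Col2a1 (999 and 1294 CPM). The 6 smooth muscle and pericyte markers summed to 672 and 589 CPM. Osteocyte markers summed to 863 and 575 CPM, of which Dmp1 was the largest part, and Mepe, another osteocyte gene, had no UMI. In the Ifitm5 cells described below the same markers summed to 680 and 608 CPM, and in the Adipoq and Lepr cells to 67.2 and 82.5 CPM. Of these lists the blood cell markers had the most unequal sums, 404 CPM in the Control and 123 CPM in the Dach1OE library.

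The cells were set beside 3 other stromal gates of the same libraries, built from the genes that the rule excludes. These were cells with Aspn, Omd and Pi15 (293 Control and 494 Dach1OE), cells with Adipoq and Lepr genes (2096 and 843) and Ifitm5 cells (1323 and 1914). Of the first gate 64.2% and 81.4% held a UMI of the mural genes Acta2, Rgs5 or Myh11, so its remaining 105 and 92 cells were used to compare levels, while shares of cells were taken over the whole gates. Against the gate with its mural cells, 9.4% of 6797 genes were higher and 10.8% lower in the metaphyseal stromal cells, and the muscle genes Acta2 (73.5 and 99.4 CPM against 5869 and 6949.6 CPM) and Myh11 were among the lower ones. A gene was called when it differed at least 1.5-fold with an interval that excluded no change in both libraries, among genes with at least 50 UMIs.

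Col1a1 and Bglap were higher than in the Adipoq and Lepr cells and lower than in the Ifitm5 cells, which carry an osteoblast gene, while Spp1 and Mmp13 exceeded both. Col1a1, which encodes the main collagen of bone, led all genes at 32003 CPM in the Control and 38149.9 CPM in the Dach1OE library, against 4767 and 4910.1 CPM in the Adipoq and Lepr cells and 184109 and 179512 CPM in the Ifitm5 cells. Bglap, which encodes osteocalcin, was at 923 and 1527 CPM, between 82.5 and 154 CPM in the Adipoq and Lepr cells and 15609 and 13206 CPM in the Ifitm5 cells. Spp1 (osteopontin) did not follow this order, since it was highest in the metaphyseal stromal cells. Its level was 5369.8 and 6373 CPM there, 132 and 192 CPM in the Adipoq and Lepr cells and 765 and 728 CPM in the Ifitm5 cells. Mmp13, a collagenase of the growth plate front, was at 4491 and 4283 CPM, 1544 and 1622 CPM and 192 and 126 CPM. After thinning, a Mmp13 UMI was found in 62.9% and 68.6% of the cells, close to the 61.1% and 67.5% of the Adipoq and Lepr cells. Dmp1, a phosphoprotein gene of mineralizing cells, was at 542 and 374 CPM against 5.57 and 7.82 CPM in the Adipoq and Lepr cells. Its level came from few cells, since 16.0% and 16.8% held a Dmp1 UMI and the 7 and 5 highest cells held 59.4% and 65.8% of its UMIs. Of 14 measured genes of bone matrix and mineralization, 12 were higher than in the Adipoq and Lepr cells and none lower, where 6.98% and 11.6% of 8512 genes were called. Of 10 osteogenic transcription factors, 7 were higher and 1 lower. Sp7 (osterix) was at 314 and 298 CPM, Runx2 at 409 and 401 CPM and Dlx5 at 308 and 286 CPM.

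Against the Ifitm5 cells, in which Col1a1 alone took the CPM given above, most genes were higher. Of 9961 genes 52.9% were called higher and 3.61% lower, and the median gene was higher by 0.85 (Control) and 0.86 (Dach1OE) on the log2 scale. Read against this, 4 of 14 bone matrix genes were higher and 7 lower. Runx2 was at 190.3 and 182 CPM in the Ifitm5 cells and Sp7 at 363 and 369.8 CPM. Cxcl12, a chemokine that holds blood progenitors in the marrow, was at 3069.9 and 2574 CPM in the metaphyseal stromal cells, 51.7 and 28.6 CPM in the Ifitm5 cells and 38083 and 34899.5 CPM in the Adipoq and Lepr cells. The summed levels of Cxcl12 and Bglap lay between these gates in both libraries. For Bglap the median cell held no UMI, and the 7 and 5 highest cells held 55.4% and 50.5% of the UMIs. For Col1a1 the median cell was at 7518 and 8749 CPM, below the summed level.

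**Figure D1:**
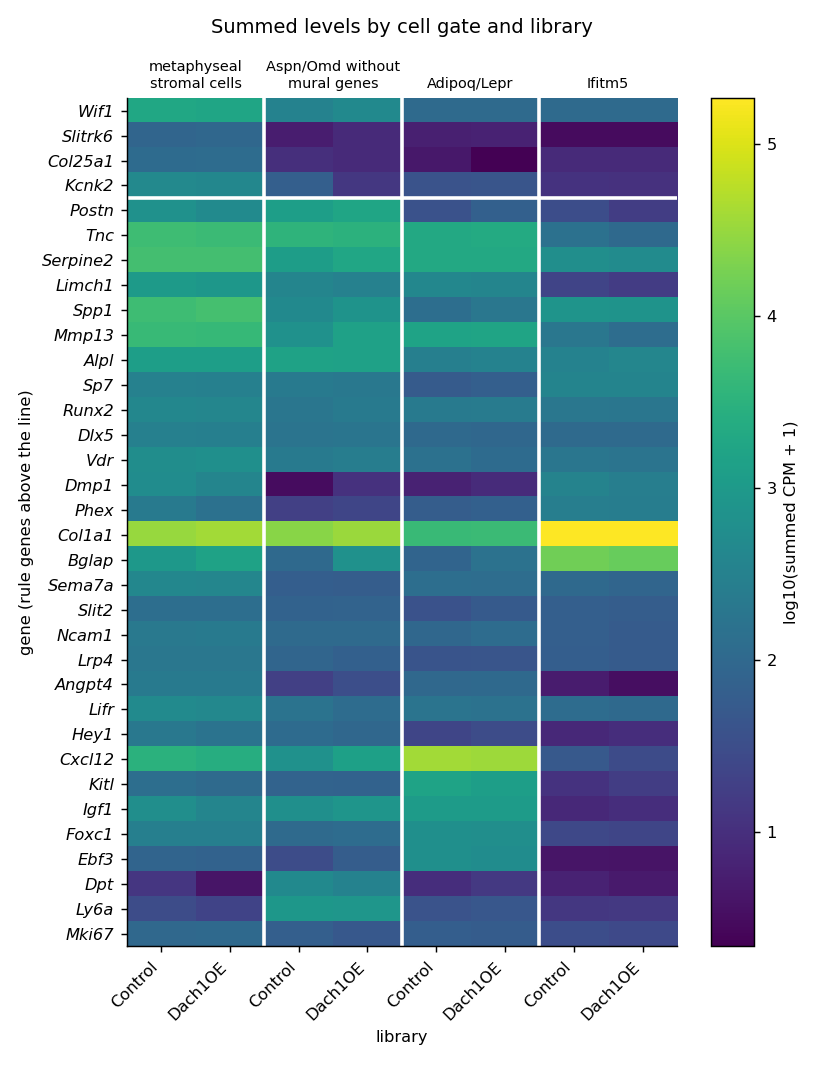
Summed level of 34 genes in the metaphyseal stromal cells and in 3 comparison gates, one column per library, as log10 of CPM + 1. The 4 rule genes stand above the line. Bglap and Col1a1 increase from the Adipoq and Lepr cells over the metaphyseal stromal cells to the Ifitm5 cells, Cxcl12 takes the opposite order, and Tnc, Serpine2, Spp1 and Mmp13 are highest in the metaphyseal stromal cells.

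Niche factors and adipogenic regulators were lower than in the Adipoq and Lepr cells. Of 12 niche factors 10 were lower and none higher. Kitl, the stem cell factor gene, was at 131 and 109.6 CPM against 1562 and 1261 CPM, and Il34, a macrophage growth factor gene, at 2.94 and 0.789 CPM against 141 and 72.0 CPM. Of 9 measured adipogenic regulators 8 were lower and none higher. Pparg, the master regulator of fat cells, was at 25.9 and 18.9 CPM against 228 and 194 CPM, and Ebf3 at 84.1 and 76.5 CPM against 623 and 536 CPM. The rule limited 6 genes of the Adipoq and Lepr programme, so these counts are not independent of it.

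The summed levels of Tnc, Serpine2 and Limch1 were higher than in all other gates. After thinning, Tnc was found in 87.6% and 88.1% of the cells, against 87.3% and 87.6% of the Adipoq and Lepr cells. For Serpine2 the shares were 89.5% and 89.3% against 93.5% and 93.1%, so neither share set the 2 gates apart. For Limch1 they were 73.7% and 64.8% against 49.9% and 42.7%. Tnc was at 5403 and 4864 CPM, against 2089 and 2198 CPM in the Adipoq and Lepr cells, 149 and 106 CPM in the Ifitm5 cells and 3482 and 3136 CPM in the Aspn and Omd cells without mural genes. Serpine2, which encodes the protease inhibitor nexin-1, was at 6104 and 6240.4 CPM and Limch1 at 1040.0 and 886 CPM, the latter against 421 and 382 CPM in the Adipoq and Lepr cells. Of 28 matricellular and other collagen genes 17 were higher and 3 lower than in the Adipoq and Lepr cells. Against the Aspn and Omd cells without mural genes the balance was the opposite, with 4 higher and 18 lower of 27, where 3.98% and 5.22% of 5196 genes were called. With the mural cells kept in that gate it was 4 higher and 6 lower. Postn itself was lower there, at 682 and 502 CPM against 1274 and 1695 CPM. The fibroblast genes Dpt (12.4 and 3.15 CPM against 466 and 331 CPM), Mfap5 (10.6 and 21.3 CPM against 799 and 645 CPM) and Ly6a (29.4 and 20.5 CPM against 890.4 and 839.7 CPM) were also lower.

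Of 5177 genes measured in every comparison, 51 (0.985%) were higher than in all other gates in both libraries, and 1 (0.0193%) was lower. The latter, named after its values were seen, was Loxl2, a lysyl oxidase gene of collagen cross-linking, at 77.6 and 98.6 CPM against 191 and 199 CPM in the Adipoq and Lepr cells and 362 and 354 CPM in the Ifitm5 cells. The genes named from the 51 are a selection, and no theme was tested. In the axon guidance list, 4 of 15 genes were higher and 2 lower than in the Aspn and Omd cells without mural genes, 6 and 2 of 16 than in the Adipoq and Lepr cells, and 11 and 3 of 19 than in the Ifitm5 cells. The last count was near the 52.9% of all genes called higher there, while 3.98% and 6.98% were called higher in the first 2 comparisons. Among the 51 higher genes were Lrp4, a sclerostin and agrin receptor gene (194 and 199 CPM), Lifr, the receptor gene of leukaemia inhibitory factor (501 and 435 CPM), Vdr, the vitamin D receptor gene (564 and 609.7 CPM) and the Notch target Hey1 (208 and 163 CPM). Sema7a, a membrane-bound semaphorin gene, was at 409 and 391 CPM against 128 and 123 CPM in the Adipoq and Lepr cells and 103 and 88.6 CPM in the Ifitm5 cells. The repellent gene Slit2 (132 and 130.1 CPM) and the neural adhesion gene Ncam1 (209 and 228 CPM) were also among the 51. So was Angpt4, a ligand gene of the endothelial receptor TIE2, at 225 and 222 CPM against 4.20 and 2.34 CPM in the Ifitm5 cells and 17.8 and 32.9 CPM in the Aspn and Omd cells without mural genes. Over the Adipoq and Lepr cells its log2 ratio was 1.17 and 1.08 in the libraries. Vegfa, the main endothelial growth factor gene, was at 80.6 and 88.3 CPM against 219 and 269 CPM in the Adipoq and Lepr cells. The receptor of parathyroid hormone, Pth1r, was at 262 and 292 CPM, and Tnfsf11, which encodes the osteoclast factor RANKL, at 28.2 and 29.2 CPM. The 51 genes also held Car1 (209 and 344 CPM) and Rhag (38.2 and 59.2 CPM), which are known from red blood cells and their precursors, and the proliferation genes Mki67, Birc5, Ccna2 and Ube2c. Prss34 and Mcpt8, genes of basophils, were higher than in the Aspn and Omd cells without mural genes, but Prss34 was found in 57.5% and 56.3% of thinned cells with Ptprc, and 93.1% and 92.4% of the Prss34 UMIs came from 7 Control and 5 Dach1OE cells.

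The cells were not uniform. Those with a Slitrk6 UMI (111 and 86) had more Spp1, at 10630 and 10326 CPM, than those without, at 3677 and 4940.1 CPM. Mmp13 followed the same split, at 8320.4 and 7512 CPM against 3259 and 3112 CPM. Cxcl12 was lower in the cells with Slitrk6, at 2165 and 1942 CPM against 3361 and 2803 CPM. All 3 differences had the same direction in both libraries, and depth was not matched between the cells compared. In cells with a Postn UMI, Tnc was at 6975 and 6004 CPM against 3019 and 3649.8 CPM without. A UMI of Mki67 or Top2a, genes of dividing cells, was present in 54 cells of each library (11.7% and 16.2%). These cells had higher median depths, 5067 and 5367 UMIs, and less Tnc, at 2500.3 and 2367 CPM against 6169 and 5877 CPM. Tnc was not particular in this, since Wif1 was at 843 and 762 CPM against 2114 and 2084 CPM, and Spp1 at 2235 and 3036 CPM against 6196 and 7727 CPM. Col1a1 was lower in them as well, at 10182 and 21638 CPM against 37757 and 44849 CPM. After thinning Mki67 was found in 5.91% and 10.3% of the cells, against 4.76% and 3.59% of the Adipoq and Lepr cells and 3.26% and 3.22% of the Ifitm5 cells. Cells with Ptprc, of which 32.9% and 35.0% held Mki67, include dividing blood cells and give no background for this gene.

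The study asked how endothelial Dach1 overexpression alters stromal cells. Metaphyseal stromal cells made up 1.75% of kept cells in Control (1.59 to 1.91) and 1.14% in Dach1OE (1.02 to 1.26), a difference of -0.610 points (-0.811 to -0.412). It was -0.138 with at least 3 rule genes, -0.200 under 10% mitochondrial UMIs, -0.224 without cells holding a Bglap copy and -0.404 at 4000 UMIs or more. At least 3 rule genes were held by 107 and 78 cells and no Bglap copy by 211 and 168, so the point differences of these sets have a smaller base. Of the cells in the 4 stromal gates together, the Aspn and Omd cells with mural genes included, the metaphyseal stromal cells were 11.1% (10.1 to 12.1) and 9.29% (8.36 to 10.3), a difference of -1.78 points (-3.12 to -0.425). Without the Aspn and Omd cells that held mural genes, a choice made after seeing the data, their share was 11.6% in the Control and 10.5% in the Dach1OE library, with -1.13 points between them, and the interval (-2.57 to 0.341) included no difference. Over the 4 whole gates, with the mural cells included again, the Adipoq and Lepr cells went from 50.2% to 23.5% and the Ifitm5 cells from 31.7% to 53.4%. The Aspn and Omd cells went from 7.02% to 13.8%. Over the same gates within cells with Xist, the metaphyseal stromal cells were 12.1% and 9.90% (difference -2.22, -4.56 to 0.217). Within cells with Y-linked UMIs they were 10.4% and 7.62% (-2.80, -5.72 to 0.102), so both shares of the gates were lower in Dach1OE with intervals that included no change. As a share of kept cells the difference was -0.770 points (-1.12 to -0.424) within cells with Xist. Within cells with Y-linked UMIs it was -0.572 points (-0.943 to -0.224), and both of these intervals excluded no change. The difference over the stromal gates did not hold under a stricter mitochondrial limit. It was 0.0893 points when only cells under 10% mitochondrial UMIs were kept. The median metaphyseal stromal cell was above this limit (11.7% and 11.2%), so most of these cells were left out. The median was 5.97% and 6.53% in the Adipoq and Lepr cells, 7.73% and 7.74% in the Ifitm5 cells and 13.1% and 14.3% in the Aspn and Omd cells. Why the difference changed was not tested. Over the smaller bases given above, the difference over the stromal gates was -0.459 with at least 3 rule genes and -0.465 without cells holding a Bglap copy.

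**Figure D2:**
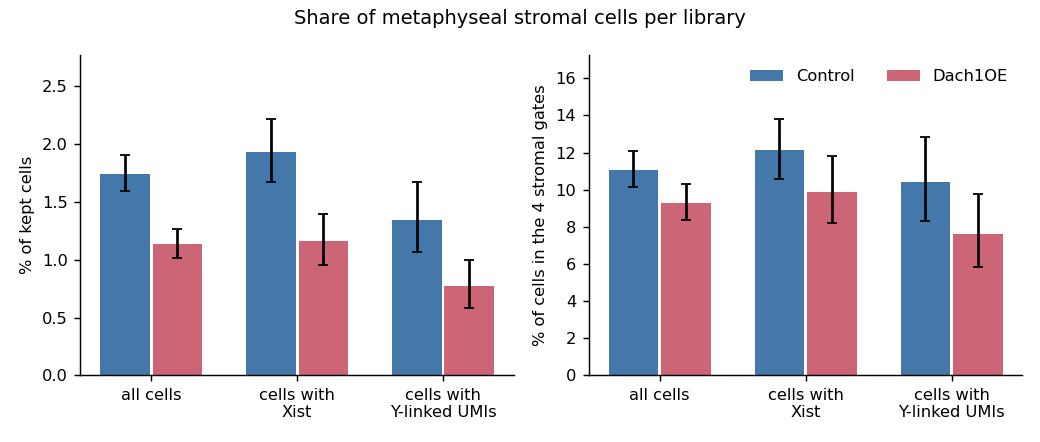
Share of metaphyseal stromal cells in each library, as a percent of all kept cells (left) and of the cells in the 4 stromal gates (right), over all cells and within cells with Xist or with Y-linked UMIs. Bars start at 0 and the whiskers are exact 95% binomial intervals; the Dach1OE bar is the lower one in all 6 pairs, and the whiskers of the right panel overlap in each.

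Within the metaphyseal stromal cells, 389 of 7522 measured genes (5.17%) were called between the libraries, 170 higher in Dach1OE (2.26%) and 219 lower (2.91%), and the median gene was at -0.01 on the log2 scale. Of the called genes with at least 100 UMIs, 56 higher and 95 lower ones kept their direction within both sexes. The cells of each sex are part of the sum that made the call, so the shared direction is no independent check. Wif1 helped to choose the cells in both libraries, so its ratio is a description. It was at 1849 CPM in the Control and 1703 CPM in the Dach1OE library, a log2 ratio of -0.12 (-0.20 to -0.04) that was not called, with -0.45 in cells with Xist and 0.71 in cells with Y-linked UMIs. Postn had a ratio of -0.44 (-0.58 to -0.30) and was not called either, since it was under 1.5-fold, but it was negative with an interval below 0, was negative within both sexes (-0.50 and -0.87) and went with the lower thinned share given above.

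Among the niche factors, Igf1 and Bmp4 were the 2 of 9 measured genes that were called, both lower, and the median of the 9 was -0.25. Igf1, an insulin-like growth factor that promotes bone formation, was at 596 CPM in the Control and 382 CPM in the Dach1OE library. The log2 ratio was -0.64 (-0.80 to -0.48), with -0.73 within Xist cells and -0.47 within Y-linked cells, and the thinned share of cells with an Igf1 UMI was 40.1% and 34.1%, against 3.48% and 2.39% of cells with Ptprc. The thinned difference of -5.95 points (-13.4 to 1.72) included no change. In the Adipoq and Lepr cells, where Igf1 was at 1086 and 1112 CPM, the ratio was 0.03 (-0.03 to 0.10), and the difference of the 2 log2 ratios was -0.68 (-0.85 to -0.51). Cxcl12 had a ratio of -0.25 (-0.32 to -0.19), below the fold for a call, and Kitl one of -0.25 (-0.57 to 0.06). Bmp4, a bone morphogenetic protein gene of low level here, had 56 and 19 UMIs (log2 ratio -1.14, -1.97 to -0.36). These lay in 28 and 11 cells, with 53.6% and 63.2% in the top 1.5% of cells, and its thinned difference of -1.24 points (-4.21 to 2.06) included no change.

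The osteogenic transcription factors had no common direction. Of 9 measured 1 was higher and 1 lower, and the median was -0.11. Runx2 (log2 ratio -0.03, -0.19 to 0.14) and Sp7 (log2 ratio -0.07, -0.27 to 0.12) were not called and lay near 0. Twist1, which encodes a factor that holds back osteoblast maturation, was higher, at 63.5 and 102 CPM with a ratio of 0.68 (0.30 to 1.06), and positive within both sexes (0.88 and 1.05). It was not called without the top 1.5% of cells (0.54), and its thinned shares of 13.7% and 19.2% differed by 5.45 points (-0.346 to 11.5), an interval that included no difference. Dlx3, a homeobox gene of differentiating osteoblasts, was lower at 67.1 and 42.6 CPM (log2 ratio -0.65, -1.15 to -0.18), but its ratio was 0.17 in cells with Y-linked UMIs. The adipogenic regulators had no called gene of 8, with a median of -0.15.

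In the bone matrix list 2 of 14 genes were higher and 1 lower. Bglap was at 923 CPM in the Control and 1527 CPM in the Dach1OE library (log2 ratio 0.73, 0.63 to 0.82) and Bglap2, its neighbouring copy, at 619 and 1014 CPM (log2 ratio 0.71, 0.59 to 0.83). The copies are near-identical, so reads may be split between them. The third copy, Bglap3, had 107 and 56 UMIs (62.9 and 44.2 CPM), lower in Dach1OE but not called. In the Ifitm5 cells, whose Bglap level was many times higher, the ratio was -0.24 (-0.25 to -0.23), so that the 2 log2 ratios differed by 0.97 (0.87 to 1.06). In the Adipoq and Lepr cells it was 0.91 (0.71 to 1.10), a difference of -0.18 (-0.39 to 0.03) that included none. Of the Bglap UMIs of the metaphyseal stromal cells 55.4% in Control and 50.5% in Dach1OE came from the top 1.5% of cells. The thinned share of cells with a Bglap UMI was 30.1% and 33.7%, against 8.41% and 9.32% of cells with Ptprc. The thinned difference of 3.61 points (-3.69 to 11.0) included no change, and without thinning the shares were 39.8% and 37.8%, in the other direction. Phex, an endopeptidase gene of phosphate balance, was lower at 236 and 148 CPM (log2 ratio -0.67, -0.93 to -0.42), with 0.16 in Xist cells and -1.91 in Y-linked cells. Alpl, which encodes the phosphatase needed for mineralization, was at 1282 and 1275 CPM (log2 ratio -0.01, -0.10 to 0.09), and Spp1 at 5369.8 and 6373 CPM (log2 ratio 0.25, 0.20 to 0.29). Of 3 measured osteocyte markers 2 were called lower, Phex and the Dkk1 described with the Wnt genes, and the median was -0.67. The third, Dmp1, had a ratio of -0.54 (-0.70 to -0.38) that was not called with all cells but was called lower without the top 1.5% (-0.78), and was at -0.31 in Xist cells and -2.14 in Y-linked cells. The thinned difference was -5.56 points (-11.2 to 0.425) for Phex and -2.64 points (-8.26 to 3.29) for Dmp1, and both intervals included no change.

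Among matrix genes Col11a2 and Cthrc1 were the 2 of 27 that were called, both higher. Cthrc1, a secreted glycoprotein gene linked to bone formation, was at 62.9 CPM in the Control and 131 CPM in the Dach1OE library (log2 ratio 1.06, 0.70 to 1.42), with 1.52 and 1.42 within the sexes. Col11a2, a fibrillar collagen gene of cartilage, was at 301 and 491 CPM (log2 ratio 0.70, 0.53 to 0.88), with 1.01 and 1.04. After thinning a Col11a2 UMI was found in 23.7% and 28.7% of the cells, against 22.9% and 28.1% of cells with Ptprc, so its share was not above that background. For Cthrc1 the shares were 10.5% and 14.2% against 2.75% and 3.15%, and their difference between the libraries of 3.69 points (-1.43 to 9.17) included no change. The cartilage genes Col10a1 (65.3 and 139 CPM) and Col9a1 (log2 ratio 0.78, 0.49 to 1.08) were called higher as well, while Col2a1 had ratios of -0.45 and 1.64 within the sexes. The thinned share was 10.2% and 14.9% for Col10a1, against 9.57% and 17.1% of cells with Ptprc. For Col9a1 it was 13.2% and 19.5%, against 21.2% and 23.9%, so neither gene was above that background in both libraries. The chondrocyte markers other than Acan were together at 1304 and 1753 CPM, and their part in the Col11a2 and Col10a1 differences was not tested.

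Wnt and hedgehog genes differed singly. Wnt4, a ligand gene, was at 27.6 and 51.3 CPM (log2 ratio 0.89, 0.33 to 1.46) and after thinning was found in 5.91% and 10.7% of cells, against 1.45% and 0.756% of cells with Ptprc. Dkk1, which encodes a secreted Wnt antagonist, was lower at 72.4 and 44.2 CPM (log2 ratio -0.71, -1.19 to -0.24). Its UMIs lay in 29 and 18 cells, and its thinned shares of 6.18% and 5.36% differed by -0.819 points (-4.44 to 3.17), an interval that included no difference. None of 9 Wnt receptor genes and none of 3 Wnt target genes was called. Ptch1, the hedgehog receptor gene and itself a hedgehog target, was at 52.9 and 79.7 CPM (log2 ratio 0.59, 0.17 to 1.02), with 0.58 and 0.57 within the sexes. The thinned share of cells with a Ptch1 UMI was 8.33% and 16.9%, a difference of 8.52 points (3.33 to 14.1), and in cells with Ptprc it was 3.91% and 4.41%. It was the only called gene of 8 in its list, and Gli1, another hedgehog target, was at 15.9 and 22.1 CPM (log2 ratio 0.48, -0.34 to 1.29) and not called.

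In the BMP and TGF-beta list 2 of 23 genes were higher and 2 lower. Id2, a target gene of BMP signalling, was at 69.4 and 109.6 CPM (log2 ratio 0.66, 0.30 to 1.03), and the thinned share of cells with its UMI was 10.8% and 20.7%, a difference of 9.94 points (4.22 to 15.9). The Control share was close to that of cells with Ptprc (10.1% and 10.5%), which can express Id2 themselves. Id3, of the same family and far more abundant, was at 1031 and 1012 CPM (log2 ratio -0.03, -0.13 to 0.08). Tgfbr3, the betaglycan coreceptor gene, was lower at 97.6 and 56.0 CPM (log2 ratio -0.80, -1.22 to -0.39), with -0.72 in each sex and its thinned share of cells was 17.5% and 9.58%, against 11.6% and 11.1% of cells with Ptprc. The Dach1OE share was therefore not above that background. The called Bmp2 (-1.82) and Tgfb2 (0.89) differences each rested on a few cells and were not called once the top 1.5% of cells were left out. The Bmp2 UMIs lay in 16 and 8 cells, with 82.7% and 72.7% in the top cells. Few were left without these, so the lost call does not show that the Bmp2 difference went.

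Of 13 vascular factor genes 1 was called higher and 2 lower. Angptl4, which encodes an angiopoietin-like protein induced by low oxygen and fatty acids, was at 52.4 CPM in the Control and 18.9 CPM in the Dach1OE library. Its log2 ratio was -1.47 (-2.18 to -0.80), with -1.43 in Xist cells and -2.22 in Y-linked cells, and after thinning a UMI was found in 9.68% and 3.07% of cells, against 2.32% and 1.39% of cells with Ptprc. The thinned difference was -6.61 points (-10.4 to -2.74). In the Adipoq and Lepr cells Angptl4 was at 125 and 87.6 CPM, with a ratio of -0.51 (-0.73 to -0.29), and the 2 log2 ratios differed by -0.96 (-1.64 to -0.27). Pdgfa, a platelet-derived growth factor gene, was lower at 273 and 164 CPM (log2 ratio -0.73, -0.98 to -0.50), with -0.39 and -1.07 within the sexes. The 1 called higher was Cyr61, a matricellular protein gene, at 51.2 and 80.5 CPM (log2 ratio 0.65, 0.23 to 1.08), but its ratios within the sexes were 0.36 and -0.08, of opposite sign. Of 15 hypoxia and glycolysis genes the 1 called was Nt5e, the gene of ecto-5'-nucleotidase, at 23.5 and 12.6 CPM (log2 ratio -0.90, -1.83 to -0.03), and it was not called without the top 1.5% of cells (-0.48). Hif1a (log2 ratio -0.21, -0.64 to 0.20), Epas1 (log2 ratio -0.27, -0.60 to 0.06) and Ep300 (log2 ratio -0.22, -0.60 to 0.15), genes of the hypoxia response itself, were not called, and the median of the list was 0.06.

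**Figure D3:**
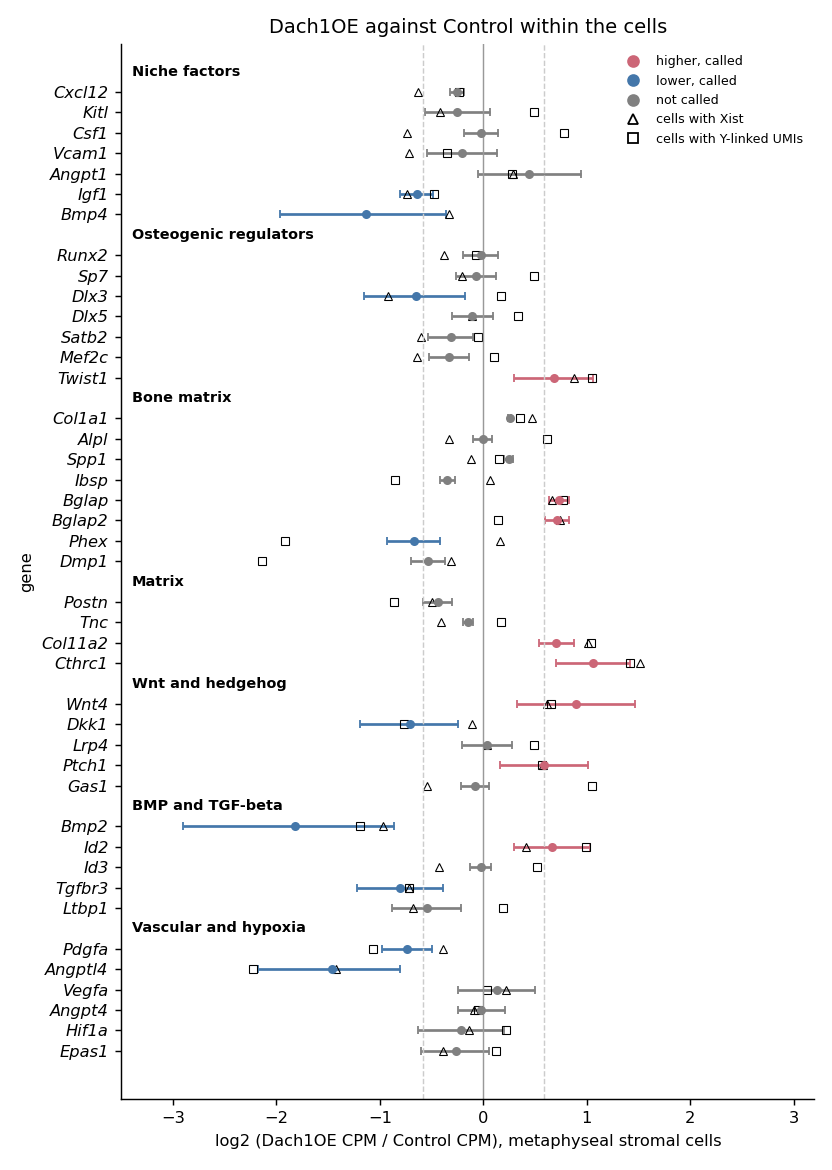
Log2 ratio of Dach1OE over Control CPM in the metaphyseal stromal cells for 42 genes of 7 groups; the bars are exact 95% intervals of counting error, and the dashed lines mark 1.5-fold. Triangles and squares give the ratio within cells with Xist and with Y-linked UMIs. Igf1, Tgfbr3, Pdgfa and Angptl4 lie left of 0 in both sexes and Twist1, Col11a2, Cthrc1, Wnt4 and Ptch1 right of it, whereas Phex and Dlx3 lie on opposite sides in the sexes.

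Some of the largest differences over all genes came from few cells. Of the 15 genes with the largest ratio and the 15 with the smallest, chosen among called genes with at least 100 UMIs and 1 direction within both sexes, 11 and 11 were still called when each gene's top 1.5% of cells, 7 in Control and 5 in Dach1OE, were left out. Over all genes 2.79% were then called higher and 2.77% lower, but these were in part other genes. Of the 170 higher and 219 lower genes called with all cells, 122 and 145 were called in both settings. H19, an imprinted non-coding RNA gene of fetal tissues (chr7:142575529-142578143), had the largest ratio. Its level was 12.9 CPM in the Control and 117 CPM in the Dach1OE library (log2 ratio 3.17, 2.52 to 3.89), 67.6% of its Dach1OE UMIs lay in 5 cells, and the ratio without the top cells was 2.55. An H19 UMI was found in 3.90% and 11.4% of the cells and, after thinning, in 1.88% and 7.28%, which is below the 6.09% and 10.2% of cells with Ptprc, so most cells were not above that background. The Aspn and Omd cells without mural genes had H19 at 1192 and 2269 CPM.

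Genes of platelets and red cells were among those with the smallest ratios. Pf4, the platelet factor 4 gene, had 812 UMIs in Control and 51 in Dach1OE, and 1 Control cell held 669 of them. Its ratio of -3.57 (-4.01 to -3.16) went to -0.54, not called, without the top cells. Plek, another platelet gene, went from -1.78 to 0.42. Prg4, which encodes the joint lubricant lubricin, was at 125 and 27.6 CPM (log2 ratio -2.18, -2.74 to -1.65), with -4.07 and -2.93 within the sexes, but 91.0% and 82.9% of its UMIs lay in the top cells, and without them the ratio was -1.24, not called. Of the platelet and red cell genes Hba-a1, Hba-a2, Hbb-bt and Ppbp were still called lower. Not all blood cell genes had this direction. The basophil genes Prss34 (239 and 528 CPM) and Mcpt8 (115 and 217 CPM) were higher in Dach1OE, with most Prss34 UMIs in few cells as given above. Car1 (209 and 344 CPM) and Rhag (38.2 and 59.2 CPM), known from red blood cells and their precursors, were higher as well. Cells with at least 5 UMIs of 10 blood cell genes numbered 31 in Control and 22 in Dach1OE, and the blood cell markers stood at 404 and 123 CPM. By contrast the top cells held at most 29.2% of the Angptl4 UMIs of either library, and its ratio was -1.68 without them. Igf1 (-0.63), Cthrc1 (0.96) and Col11a2 (0.75), the last at the background share of Ptprc cells, were still called, and Twist1 (0.54) was not.

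**Figure D4:**
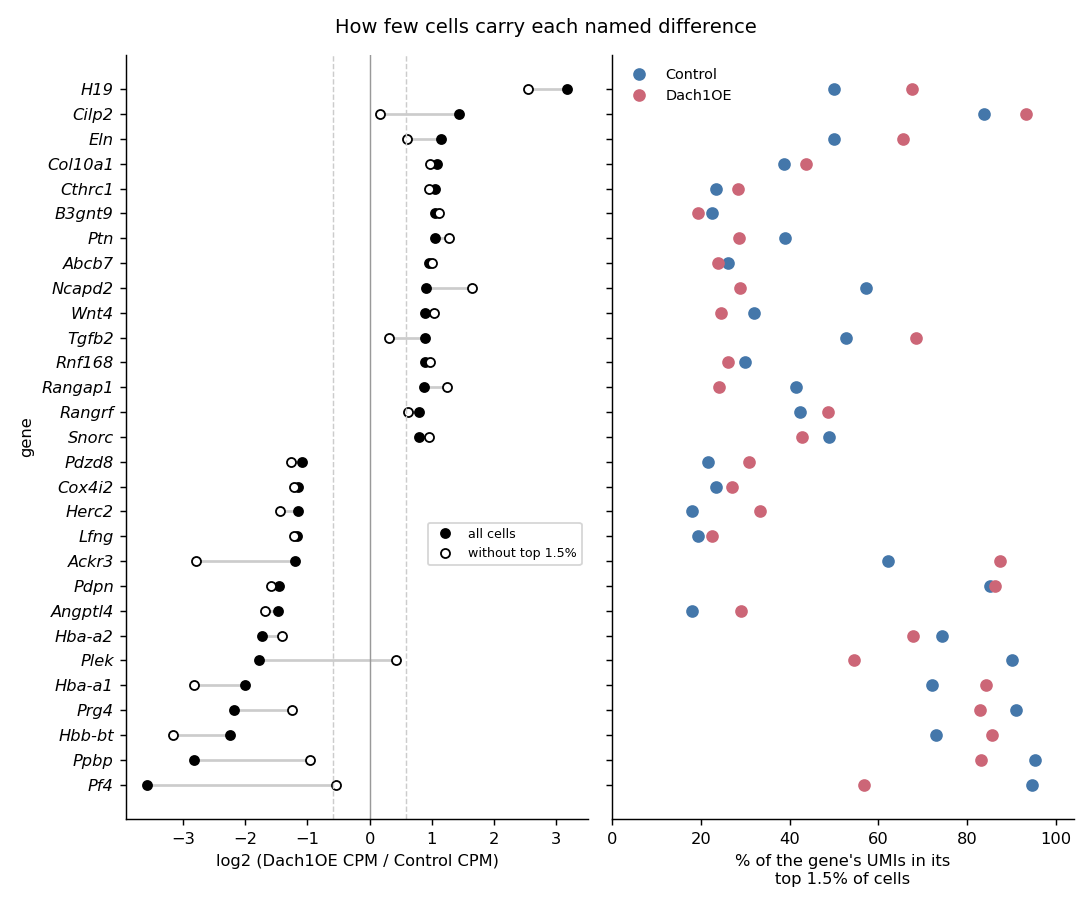
Genes of largest difference between the libraries. Left, log2 ratio of Dach1OE over Control CPM with all metaphyseal stromal cells (filled) and without each gene's top 1.5% of cells (open), with dashed lines at 1.5-fold; right, percent of each gene's UMIs in those top cells, per library. Pf4, Plek, Ppbp and Cilp2 move far and have over 50% of their UMIs in the top cells, while Cthrc1, Lfng and Angptl4 move little.

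Lfng, which encodes a modifier of Notch receptors, was at 54.7 and 24.5 CPM (log2 ratio -1.16, -1.80 to -0.56), and Cox4i2, a respiratory chain subunit gene, at 45.3 and 20.5 CPM (log2 ratio -1.14, -1.84 to -0.49). Being lower within both sexes was a condition for naming Lfng and Cox4i2, and Cox4i2 was at only -0.125 in cells with Y-linked UMIs. Both were spread over more cells than the blood cell genes. Ptn, which encodes the heparin-binding factor pleiotrophin, was higher at 48.2 and 99.4 CPM (log2 ratio 1.04, 0.63 to 1.46). Ptn and Lfng had thinned differences of 4.24 points (-0.306 to 9.20) and -4.16 points (-8.09 to 0.0390). Among the called genes named here for which it was computed, the thinned difference excluded no change for Angptl4, Ptch1, Wnt4, Id2, Tgfbr3, Col9a1, Cox4i2, H19, Hbb-bt and Prss34, and included it for the others, Pdgfa, Dlx3, Cyr61, Sema3a and Top2a among them. Of 13 cell cycle genes only Top2a was called, at 102 and 174 CPM (log2 ratio 0.77, 0.47 to 1.06), while Mki67 was at 101 and 103 CPM (log2 ratio 0.03, -0.31 to 0.37). None of 6 genes of the dissociation response and none of 2 measured interferon genes was called. In the axon guidance list 1 of 16 genes was called, Sema3a, lower at 38.8 and 17.4 CPM with 0.24 in Y-linked cells. Of the 51 genes higher than in all other gates, only Car1 and Rhag were called between the libraries, both higher. Sema7a was at a log2 ratio of -0.07 (-0.23 to 0.10), Angpt4 at -0.02 (-0.25 to 0.21), Lrp4 at 0.03 (-0.21 to 0.28) and Tnc at -0.15 (-0.20 to -0.10).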

How the data were processed

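The deposited tables listed, for each cell and gene, the reads, raw molecules and RSEC-adjusted molecules that the authors counted with release 1.11 (per the file headers) of the BD Rhapsody WTA pipeline. The methods state another version. The headers name GRCm38 with GENCODE vM19, intronic reads counted and refined cell calling, and the submitters' processing notes name mm10. The RSEC-adjusted molecules, whole counts with no normalization, were used. RSEC merges identifiers that differ by sequencing errors. Intronic counting adds unspliced and overlapping transcripts to a gene, and whether strand was used is not given in the sources used here.

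Cells with 500 to 6000 genes and under 25% mitochondrial UMIs were kept. The cells and the gene lists were chosen with earlier results of these data known. UMIs were summed per library and divided by the total (CPM). Log2 ratios have exact conditional binomial intervals, shares Clopper-Pearson intervals and differences of shares Newcombe intervals, all at 95%. Named genes were those of the lists with at least 20 UMIs, the 20 of highest CPM, and the 15 of largest and 15 of smallest ratio among called genes with at least 100 UMIs and, between libraries, 1 direction in both sexes. Doublet calls (Scrublet in scanpy 1.11.5) removed no cell. The other gates need their own genes and are disjoint. Alternatives were raw molecules, TMM (edgeR 4.0.16), DESeq2 1.42.0 size factors, other filters and gates, thinning and doublet removal. Leaving out mural cells, top cells, blood-rich cells or cells holding a Bglap copy was chosen after seeing the data. The interval step was tested on simulated library sums with counting error only. UMIs gathered in few cells were not simulated, so this gives no check of the intervals for such genes. Python 3.11.15 and scipy 1.17.1 were used. Promoter letters are from RefSeq. Of the named genes 1 is not reported here.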

Additional observations from a re-analysis of the deposited data

Results flagged for a closer look

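Each of the following genes had ratios of at least 1.5-fold in opposite directions, and in no case was the difference between the ratios tested. All values are log2 ratios of Dach1OE over Control CPM. Within the metaphyseal stromal cells, Csf1, a macrophage growth factor gene, was at -0.73 in cells with Xist and 0.78 in cells with Y-linked UMIs. Ccnd1, the cyclin D1 gene, was at -0.67 in cells with Xist and 0.93 in cells with Y-linked UMIs. Thbs4, a thrombospondin gene, was at 0.95 in cells with Xist and -4.92 in cells with Y-linked UMIs, but its UMIs lay in 18 Control and 7 Dach1OE cells, with 76.6% and 99.4% in the top 1.5% of cells, without which its ratio over both sexes went from 0.07 to -5.19. Ucma, a cartilage matrix gene, was at -2.26 in cells with Xist and 3.11 in cells with Y-linked UMIs, with UMIs in 10 and 14 cells. Nt5e was at -0.90 in the metaphyseal stromal cells and 0.89 in the Adipoq and Lepr cells. Cilp2, a cartilage and tendon gene, was at 1.44 in the metaphyseal stromal cells, at -3.43 in the Adipoq and Lepr cells and at -2.47 in the Ifitm5 cells. In the metaphyseal stromal cells its UMIs lay in 13 and 10 cells, and without the top 1.5% of cells its ratio was 0.16, not called.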

How the results depend on the processing

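Of 75 values recomputed under an alternative, 49 stayed within the limit set for them, 25 moved beyond it and 1 reversed. With raw UMIs, TMM scaling, DESeq2 size factors, without Scrublet doublets, without the 31 and 22 blood-rich cells or without each gene's top 1.5% of cells, the counts of called genes stayed within 1.5 times. A similar count does not mean the same genes, since without the top cells 122 of the 170 higher and 145 of the 219 lower genes kept their call. Genes higher in Dach1OE (170) numbered 74 with at least 3 rule genes, 89 after thinning to 2000 UMIs, 107 in cells with Y-linked UMIs, 314 with no filter on low counts and 279 with equal weight per cell. Genes lower (219) numbered 116, 80, 127 and 399 under the first 4 of these and 117 without cells holding Bglap, Bglap2 or Bglap3, where 145 were higher. Genes higher than in the Adipoq and Lepr cells (594) numbered 348 with at least 3 rule genes, 393 after thinning and 195 in cells with at least 4000 UMIs. For the Aspn and Omd cells (639) these were 320, 288 and 230, with 263 under 10% mitochondrial UMIs and 207 without mural cells, and for the Ifitm5 cells (5271) 2512 with at least 3 rule genes and 2240 after thinning. The share of kept cells (-0.610 points) differed by -0.138 with at least 3 rule genes, -0.404 at 4000 UMIs or more, -0.200 under 10% mitochondrial UMIs and -0.224 without Bglap cells. The share of the stromal gates (-1.78 points) differed by -3.19 at 4000 UMIs or more and reversed to 0.0893 under 10% mitochondrial UMIs. It stayed within its limit but was smaller in points with at least 3 rule genes (-0.459), without Bglap cells (-0.465) and without Aspn and Omd cells that held mural genes (-1.13). At least 3 rule genes were held by 107 and 78 cells and no Bglap copy by 211 and 168. The point differences of both shares in these sets are over a smaller base and were not scaled to it. Fewer cells or UMIs enter under the stricter rules, the thinning, the single sex, the depth limit and the limit of 10% mitochondrial UMIs. For the other moves the cause was not tested. No paired analysis was possible because each group had 1 library. Counts, not replicates, set every interval, and genes under 50 UMIs were beyond this depth.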
